A study of Mus musculus with 9 samples.

Results

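The 27 genes described here encode enzymes and regulators of cholesterol and fatty acid synthesis, and they were measured by RNA sequencing of skin. The mice were BALB/c nude, which lack a thymus and have little hair. The list was matched by gene symbol in a table of 57180 genes, and all 27 had a row and passed the filter on low counts that left 17168 genes for testing. The 9 libraries formed 3 groups of 3. NoUVB skin received no ultraviolet B. UVB-Saline and UVB-hCOL3A1 skin had dorsal irradiation every other day for 8 weeks, with a first dose of 60 mJ/cm² (1 minimal erythemal dose) and a last dose of 240 mJ/cm² (4 minimal erythemal doses), and the 2 groups are named for saline and for hCOL3A1, which the series title ties to type III collagen delivered as mRNA. All groups shared the strain, the tissue and 1 batch label. No saline is named for NoUVB and no carrier control for hCOL3A1, so irradiation and saline, or collagen and its carrier, cannot be told apart. Collection is placed at day 28 with no start of that count, and the labels give neither the age of the mice nor the animal behind each library. The spread between libraries may therefore be partly technical.

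Cells make cholesterol from acetyl-CoA by way of mevalonate, farnesyl diphosphate, squalene and lanosterol, and they make fatty acids from acetyl-CoA by way of malonyl-CoA. Both pathways are switched on by the sterol regulatory element binding proteins SREBP-1 and SREBP-2, which Insig proteins hold in the endoplasmic reticulum when sterols are plentiful. In skin, keratinocytes use cholesterol and fatty acids for the permeability barrier of the stratum corneum, sebocytes use them for sebum, and adipocytes store fatty acids as triglyceride.

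The libraries held 7640172 to 12927411 estimated counts, of which 9832 to 19202 fell on the 27 genes. The 18S ribosomal RNA row took 34.3% to 55.3% of counts in 8 libraries and 7.71% in NoUVB 2. UVB-Saline 3 and UVB-hCOL3A1 3 stood apart on the first principal component (55.0 and 39.8 against -33.5 to 10 for the other 7). Defining markers of skin were present. All 5 basal keratinocyte, 6 suprabasal keratinocyte and 5 fibroblast markers on the lists passed the filter, with a summed level of at least 2110, 2570 and 4190 CPM (counts scaled to a common library size) in each library. The liver markers Alb, Apoa2 and Ttr had at most 10, 0 and 1 counts in any library. In whole skin, fewer cells of a type and less RNA per cell cannot be told apart.

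Regulation of these genes is known to pass through short promoter elements, so the promoters were read before the levels. RefSeq promoters (build GRCm38.p6, 250 bases before to 50 after each start) were matched for 23 of the 27 genes by symbol. Those of Fdps, Fdft1, Sqle and Stard4 were not matched. The core of the sterol regulatory element, TCACNCCAC on either strand, was present for 1 of the 23 genes (4.35%), Hmgcs1, and for 1.44% of 27025 genes with a promoter in the table. The shorter form CACNCCAC, which lies within the longer, was present for Insig1, Acat2 and Hmgcs1 (13.0% against 7.12%). CCAAT on either strand, the box that the factor NF-Y binds beside SREBP, was present for 21 of 23 (91.3%) against 41.1% of all genes and 42.6% of the 11531 tested genes that had a promoter. Acat2 and Acaca were the 2 without it. The GC box GGGCGG was present for 20 of 23 (87.0%) against 65.0% of tested genes, and the E-box CACGTG for 4 (17.4%) against 11.1%. Genes with several starts had more sequence to match, and the median GC content was 62.7% for these promoters and 52.7% for all. A match is a description of letters, not of binding. Only these exact letters were searched, so the lack of a match does not show that a sterol element is absent.

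The 200 bases before the start are shown for Hmgcs1, which holds the exact core of the sterol element. They are also shown for 5 sterol genes whose UVB-Saline and NoUVB libraries did not overlap (Mvd, Idi1, Cyp51, Hsd17b7 and Ebp). The last is Fasn, a fatty acid gene whose libraries overlapped. The windows run 5′ to 3′ on the strand of the gene, with the sterol element core and each CCAAT box, on either strand, in capitals. In GRCm38.p6 they lie at chr13:119690151-119690350 (plus strand), chr8:122443423-122443622 (minus strand), chr13:8885406-8885605 (plus strand), chr5:4104698-4104897 (minus strand), chr1:169969206-169969405 (minus strand), chrX:8193513-8193712 (minus strand) and chr11:120824548-120824747 (minus strand).
Hmgcs1: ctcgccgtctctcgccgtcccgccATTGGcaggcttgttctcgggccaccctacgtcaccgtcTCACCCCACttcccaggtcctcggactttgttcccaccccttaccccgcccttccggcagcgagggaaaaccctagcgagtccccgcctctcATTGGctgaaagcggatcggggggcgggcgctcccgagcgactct
Mvd: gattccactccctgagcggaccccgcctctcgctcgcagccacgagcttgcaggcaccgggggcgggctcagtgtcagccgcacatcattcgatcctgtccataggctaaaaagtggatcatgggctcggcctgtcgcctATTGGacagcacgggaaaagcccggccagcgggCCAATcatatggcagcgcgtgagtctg
Idi1: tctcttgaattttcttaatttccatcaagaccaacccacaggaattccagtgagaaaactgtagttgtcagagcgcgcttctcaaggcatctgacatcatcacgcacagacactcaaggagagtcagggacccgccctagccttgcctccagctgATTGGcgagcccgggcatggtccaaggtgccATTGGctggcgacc
Cyp51: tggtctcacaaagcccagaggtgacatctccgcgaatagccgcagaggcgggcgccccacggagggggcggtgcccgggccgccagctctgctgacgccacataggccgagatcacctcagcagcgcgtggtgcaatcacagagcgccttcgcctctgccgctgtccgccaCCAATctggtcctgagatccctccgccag
Hsd17b7: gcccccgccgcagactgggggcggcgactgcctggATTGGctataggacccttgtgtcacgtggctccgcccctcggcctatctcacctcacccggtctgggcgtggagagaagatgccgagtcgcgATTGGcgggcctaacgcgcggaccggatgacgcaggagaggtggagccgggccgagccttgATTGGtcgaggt
Ebp: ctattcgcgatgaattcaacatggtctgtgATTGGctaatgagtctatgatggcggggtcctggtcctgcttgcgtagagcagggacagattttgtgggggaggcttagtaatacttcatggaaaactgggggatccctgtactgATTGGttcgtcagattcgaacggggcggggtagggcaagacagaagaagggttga
Fasn: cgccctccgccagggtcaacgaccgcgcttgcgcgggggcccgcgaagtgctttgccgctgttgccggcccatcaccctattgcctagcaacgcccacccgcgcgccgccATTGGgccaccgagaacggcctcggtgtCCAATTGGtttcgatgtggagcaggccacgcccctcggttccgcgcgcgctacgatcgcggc
Within these windows CCAAT occurred 2 times for Hmgcs1, Mvd, Idi1 and Ebp, 1 time for Cyp51 and 3 times for Hsd17b7 and Fasn, with 2 of the matches overlapping in Fasn. The box was present in each of these windows, and whether it relates to the levels was not tested.

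**Figure D1:**
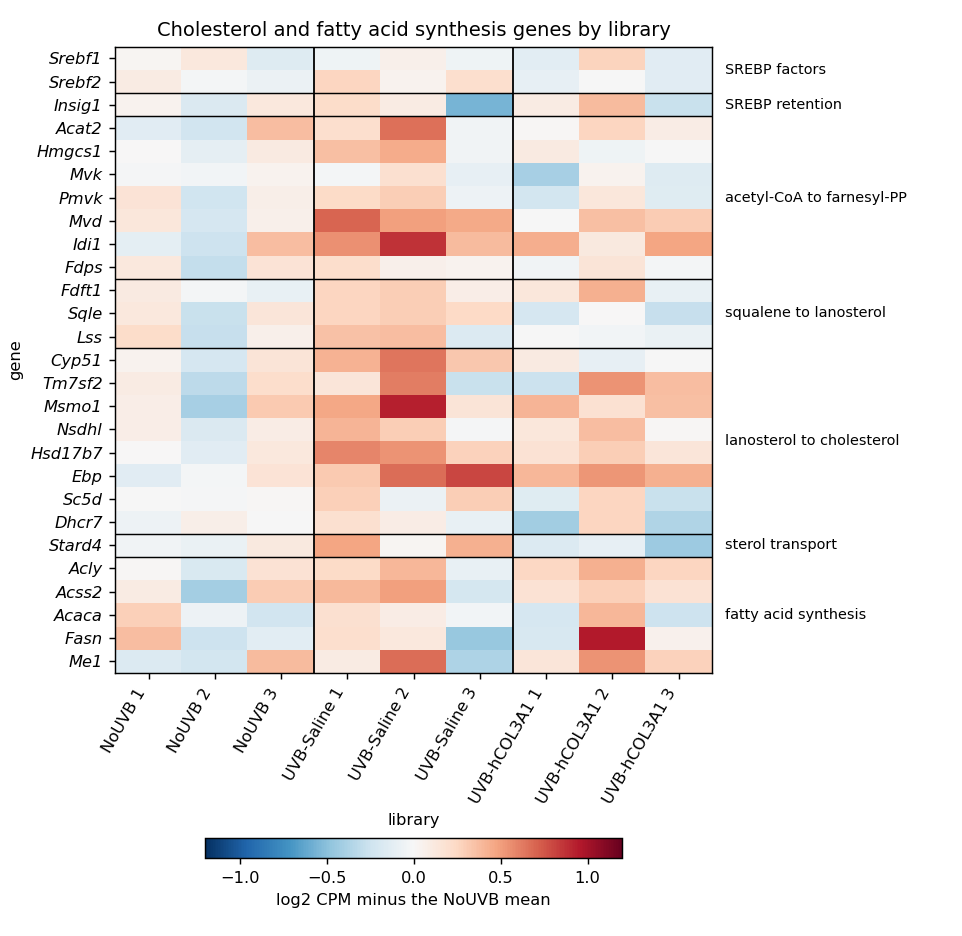
Each row is a gene, ordered by role, and each column a library. Colour is log2 CPM minus the mean of the NoUVB libraries. Most sterol pathway rows are red in UVB-Saline 1 and 2, NoUVB 2 has the lowest level of 14 genes, and Fasn stands out in UVB-hCOL3A1 2.

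UVB-Saline was compared with NoUVB to ask how irradiated skin differed from skin without irradiation. No member passed an adjusted p of 0.05 in edgeR's quasi-likelihood test, in which 0.0175% of all 17168 genes were called. The log2 difference was positive for 24 of the 27 genes, against 51.8% of all genes, with a median of 0.22 against 0.01 over all genes. All 18 listed enzymes from acetyl-CoA to cholesterol were on the positive side, from 0.03 to 0.61. Further enzymes of the route were not on this list and are described with the other pathway genes below. In 6 genes (22.2%) every UVB-Saline library lay above every NoUVB library, against 7.18% of all genes, and in 0 below, against 6.61%. At an unadjusted p of 0.05, edgeR had 6 members higher and 0 lower, as did DESeq2 and limma voom. In edgeR 4.93% of all genes were higher and 4.60% lower at that level. The shares were 1.95% and 2.05% in DESeq2, which ran without the filter on low counts, and 4.37% and 4.88% in limma voom.

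The enzymes between lanosterol and cholesterol had the widest margins, with a median of 0.35 over 8 genes. Ebp (ENSMUSG00000031168), a sterol isomerase, stood at 7.39, 8.04 and 9.14 CPM in NoUVB 1, 2 and 3 and at 10.2, 13.1 and 14.3 CPM in UVB-Saline 1, 2 and 3. The 2 groups did not overlap. The means were 8.19 ± 0.886 and 12.5 ± 2.13 CPM (SD, n = 3), a 1.52-fold ratio and a log2 difference of 0.61 ± 0.16 (SE, edgeR adjusted p = 0.319). Cyp51 (ENSMUSG00000001467), the demethylase that takes lanosterol as substrate, was at 35.5, 30.0 and 38.4 CPM in NoUVB and at 46.0, 53.8 and 43.0 CPM in UVB-Saline. Its groups did not overlap either, with a log2 difference of 0.46 ± 0.12 (edgeR adjusted p = 0.319). Hsd17b7 (ENSMUSG00000026675), a keto-sterol reductase, was at 13.8, 12.5 and 15 CPM in NoUVB and at 20.7, 20 and 16.7 CPM in UVB-Saline. The lowest UVB-Saline library was replicate 3, still above NoUVB 3, and the log2 difference was 0.48 ± 0.13 (edgeR adjusted p = 0.319).

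Msmo1, the methylsterol oxidase of the same stretch, overlapped between groups. It measured 54.0, 38.7 and 63.4 CPM in NoUVB and 70.4, 97.6 and 56.7 CPM in UVB-Saline. UVB-Saline 2 was the highest of all 9 libraries and UVB-Saline 3 lay below NoUVB 3, with a log2 difference of 0.53 ± 0.22 (edgeR adjusted p = 0.498). Without UVB-Saline 2 the value was 0.28. The other 4 genes of this stretch had smaller values. They were 0.24 for Nsdhl, a sterol dehydrogenase, 0.22 for Tm7sf2, a sterol reductase, 0.18 for the desaturase Sc5d, and 0.07 for Dhcr7, the reductase of the last step. The substrate of Dhcr7 is the provitamin D that ultraviolet B converts in skin. Its levels were 21.3, 23.4 and 22.2 CPM in NoUVB and 25.5, 23.8 and 20.9 CPM in UVB-Saline, and they overlapped.

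Among the 7 genes that lead from acetyl-CoA to farnesyl diphosphate the median log2 difference was 0.27, and 2 had groups that did not overlap. Mvd (ENSMUSG00000006517), the decarboxylase that makes isopentenyl diphosphate, was at 9.23, 7.23 and 8.75 CPM in NoUVB and at 13.7, 11.8 and 11.5 CPM in UVB-Saline. Every UVB-Saline library was above 11 CPM and every NoUVB library below 10 CPM, and the log2 difference was 0.56 ± 0.16 (edgeR adjusted p = 0.353). Idi1 (ENSMUSG00000058258), the isomerase of the next step, was at 51.3, 46.5 and 71.6 CPM in NoUVB and at 81.5, 101 and 72.4 CPM in UVB-Saline. The gap between NoUVB 3 and UVB-Saline 3 was small, and the log2 difference was 0.59 ± 0.18 (edgeR adjusted p = 0.367). Hmgcs1 (ENSMUSG00000093930), whose promoter held the exact sterol element core, encodes the cytosolic HMG-CoA synthase. It was at 121, 111 and 130 CPM in NoUVB and at 154, 164 and 117 CPM in UVB-Saline. UVB-Saline 3 lay within the NoUVB range, and the log2 difference was 0.27 ± 0.13 (edgeR adjusted p = 0.558). The remaining 4 genes were Acat2 (0.29), the thiolase of the first step, Pmvk (0.16) and Mvk (0.03), both kinases of mevalonate intermediates, and Fdps (0.09), the farnesyl diphosphate synthase. All 4 overlapped between groups. Estimated counts divide reads among rows with like sequence, and the values of Acat2, Hmgcs1, Fdft1 and Acaca were not whole in 9 of 9 libraries, so their levels are less certain. The same caution applies to Fdps and Me1 (not whole in 8), Acss2 (7), Idi1 and Lss (6) and Cyp51 (5). Values were not whole in 2 libraries for Tm7sf2 and in 1 for Sc5d and Srebf1. Acat2 has a near-identical paralog.

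Of the 3 genes from farnesyl diphosphate to lanosterol, Sqle (ENSMUSG00000022351), the squalene epoxidase, had groups that did not overlap. It was at 39.9, 30.5 and 40.5 CPM in NoUVB and at 43.7, 45.0 and 43.4 CPM in UVB-Saline. The UVB-Saline libraries lay close together and just above NoUVB 3, with a log2 difference of 0.25 ± 0.13 (edgeR adjusted p = 0.570). Squalene synthase (Fdft1) had a log2 difference of 0.22 and lanosterol synthase (Lss) of 0.20, and both overlapped between groups.

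The regulators had small values. Srebf2, which encodes SREBP-2, the factor that acts mainly on sterol genes, was at 102, 93.9 and 90.6 CPM in NoUVB and at 114, 98.2 and 110 CPM in UVB-Saline. These ranges overlapped, and the log2 difference was 0.17 ± 0.09 (edgeR adjusted p = 0.605). Srebf1, which encodes SREBP-1, the factor that acts mainly on fatty acid genes, had -0.02 ± 0.13 (edgeR adjusted p = 0.979). Insig1, itself a target of SREBP, had -0.04 ± 0.22, with 20.3 CPM in UVB-Saline 3 and 26.6 to 35.0 CPM in the other 5 libraries of the 2 groups. Stard4, a cytosolic sterol carrier, was at 13.8, 13.5 and 15.5 CPM in NoUVB and at 19.8, 14.5 and 19.2 CPM in UVB-Saline. Its UVB-Saline 2 value fell within the NoUVB range (log2 difference 0.32 ± 0.15, edgeR adjusted p = 0.564).

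The 5 fatty acid synthesis genes had a median log2 difference of 0.17 and overlapped between these groups. Fasn (ENSMUSG00000025153), the fatty acid synthase, was at 404, 264 and 287 CPM in NoUVB and at 359, 342 and 228 CPM in UVB-Saline. The highest and the lowest of these 6 values were NoUVB 1 and UVB-Saline 3, and the log2 difference was -0.04 ± 0.32 (edgeR adjusted p = 0.982). The values were 0.24 for Acss2 and 0.18 for Acly, which supply acetyl-CoA from acetate and citrate, 0.07 for the acetyl-CoA carboxylase Acaca, and 0.17 for Me1, a malic enzyme that supplies NADPH.

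Single libraries moved these figures. Without UVB-Saline 2 the median of the 27 genes was 0.11 and 21 of 27 were positive, and without NoUVB 2, the library with little ribosomal RNA, the median was 0.13 with 24 positive. Without UVB-Saline 2 the values of Acat2, Hmgcs1 and Acly were 0.06, 0.16 and 0.06, and without NoUVB 2 those of Pmvk, Sqle, Lss and Acss2 were 0.04, 0.13, 0.07 and 0.05. Without UVB-Saline 3, 26 were positive and 11 were higher at an unadjusted p under 0.05 (3.55% of all genes). In 14 the UVB-Saline libraries then lay wholly above NoUVB, against 11.6% of all genes. No member was called without any of the 9 libraries. Scaled by library size alone, 23 genes were positive and 0 had an unadjusted p under 0.05. At that level 2.21% of all genes were higher and 2.59% lower. With that scaling 0 members lay wholly above NoUVB (2.09% of all genes) and 0 wholly below (1.36%).

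**Figure D2:**
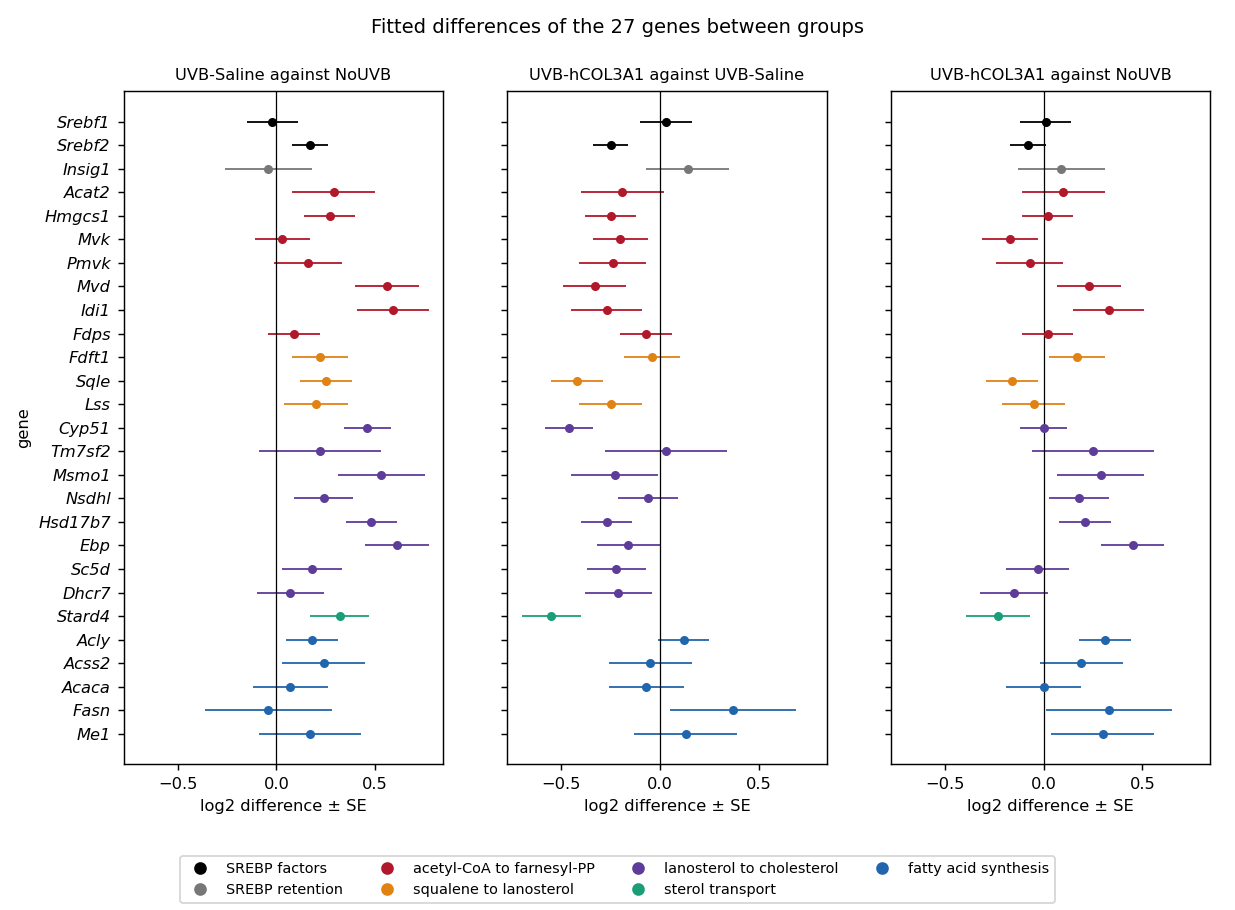
Points are fitted log2 differences in 3 comparisons and bars their standard errors, with genes ordered and coloured by role. All 18 listed sterol pathway enzymes lie right of 0 for UVB-Saline against NoUVB. For UVB-hCOL3A1 against UVB-Saline, a comparison that shares the UVB-Saline libraries, 17 of them lie left of 0.

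UVB-hCOL3A1 was compared with UVB-Saline to ask what the collagen treatment changed in irradiated skin. No member passed here either, and edgeR called 0% of all genes. Of the 27 genes 21 had a negative log2 difference and 6 a positive, against 46.1% positive over all genes, and the median was -0.20 against -0.02. The 18 sterol enzymes ranged from -0.46 to 0.03, with 17 negative. In 5 genes (18.5%) every UVB-hCOL3A1 library lay below every UVB-Saline library, against 8.33% of all genes, and in 0 above, against 8.95%. At an unadjusted p of 0.05, 4 members were lower and 0 higher in edgeR, where 5.32% and 5.97% of all genes were. DESeq2 had 4 lower (1.91% of all genes) and limma voom 5 (5.35%). UVB-Saline enters this comparison as well as the last, so a high UVB-Saline value by itself gives opposite signs, and the 2 sets of values are not independent.

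Stard4 (ENSMUSG00000024378), the sterol carrier, had the largest negative value. It was at 12.7, 13.3 and 10.5 CPM in UVB-hCOL3A1, below the lowest UVB-Saline value of 14.5 CPM. The means were 12.1 ± 1.47 and 17.8 ± 2.92 CPM (SD, n = 3), a log2 difference of -0.55 ± 0.15 (edgeR adjusted p = 0.261). Cyp51 was at 37.1, 32.1 and 34.4 CPM in UVB-hCOL3A1. These values lay below all 3 UVB-Saline libraries and within the NoUVB range, and the log2 difference to UVB-Saline was -0.46 ± 0.12 (edgeR adjusted p = 0.247). Sqle was at 31.9, 36.8 and 30.2 CPM, against 43.4 to 45.0 CPM in UVB-Saline. The SD was 3.41 CPM in UVB-hCOL3A1 and 0.843 CPM in UVB-Saline, with a log2 difference of -0.42 ± 0.13 (edgeR adjusted p = 0.289).

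The other 2 genes without overlap were Srebf2 and Mvd. Srebf2 was at 89.4, 95.2 and 86.8 CPM in UVB-hCOL3A1, all below the 98.2 CPM of UVB-Saline 2, with a log2 difference of -0.25 ± 0.09 (edgeR adjusted p = 0.370). Mvd was at 8.31, 10.8 and 10.4 CPM, below the 11.5 CPM of UVB-Saline 3, with a log2 difference of -0.33 ± 0.16 (edgeR adjusted p = 0.463). In the remaining sterol genes the groups overlapped. Hsd17b7 had -0.27 ± 0.13, Hmgcs1 -0.25 ± 0.13, Idi1 -0.27 ± 0.18 and Ebp -0.16 ± 0.16. The smallest edgeR adjusted p among these 4 was 0.458, for Hsd17b7.

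The signs of the fatty acid genes were mixed in this comparison. Their median log2 difference was 0.12, with Acly (0.12), Me1 (0.13) and Fasn (0.37) positive and Acss2 (-0.05) and Acaca (-0.07) negative. Fasn was at 274, 603 and 325 CPM in UVB-hCOL3A1. The value of UVB-hCOL3A1 2 was the highest of all 9 libraries and the other 2 lay within the UVB-Saline range, so the log2 difference of 0.37 ± 0.32 (edgeR adjusted p = 0.704) became -0.05 without that library. Without UVB-hCOL3A1 2, 25 of all 27 genes were negative, so the mix of signs depended on that library. Whether sterol and fatty acid genes differed from each other was not tested.

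The median of the 27 genes was -0.09 without UVB-Saline 2, with 17 negative, -0.10 without UVB-hCOL3A1 1 and -0.12 without UVB-hCOL3A1 3. Without UVB-hCOL3A1 2, 25 of 27 were negative and 13 lay wholly below UVB-Saline (11.9% of all genes). In that setting 7 were lower at an unadjusted p under 0.05 (3.37% of all genes). Without UVB-Saline 3, 24 were negative and 11 lay wholly below UVB-Saline (14.5% of all genes). Scaled by library size alone, 3 members lay wholly below (7.62% of all genes) and 0 had an unadjusted p under 0.05. At that level 1.81% of all genes were lower and 2.31% higher.

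**Figure D3:**
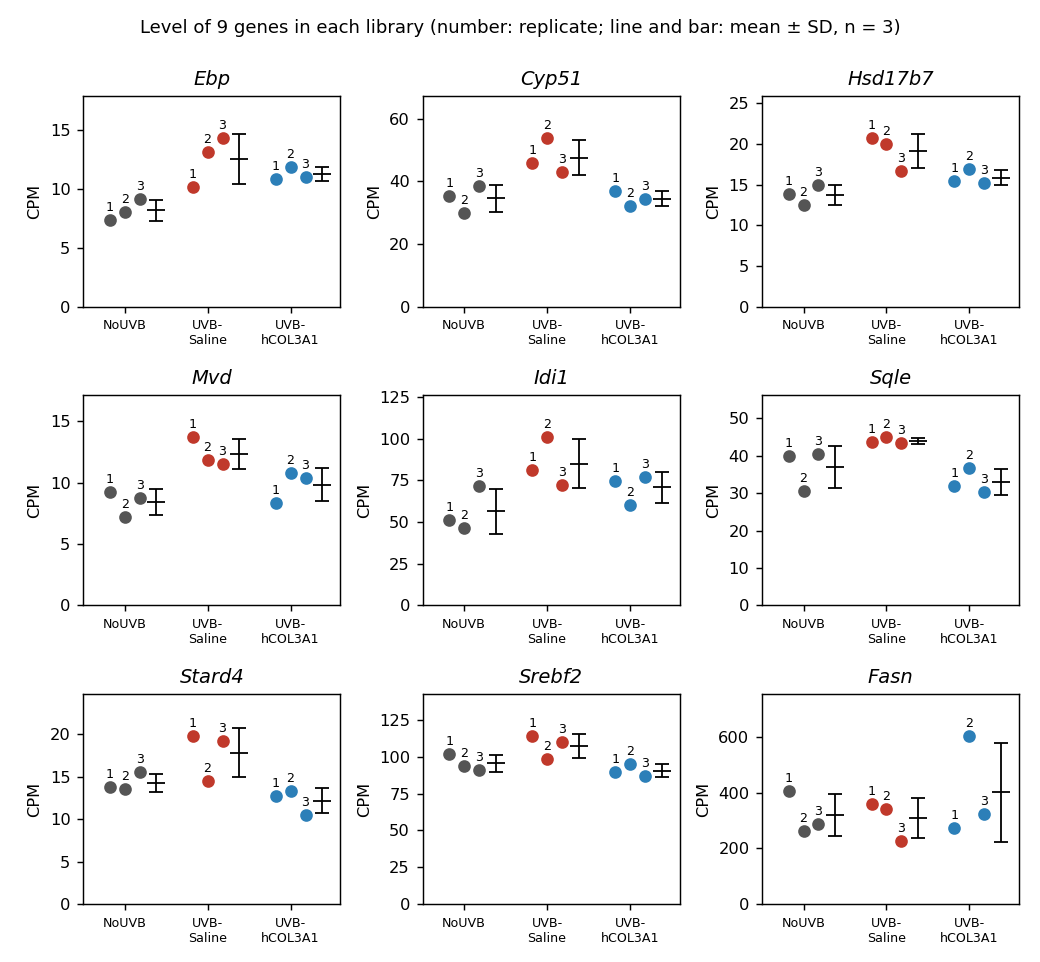
Level in CPM of 9 genes in each library, with the replicate number above each point and the mean ± SD of 3 libraries to the right of each group. In the top 2 rows all UVB-Saline points lie above all NoUVB points. Stard4 and Srebf2 have all UVB-hCOL3A1 points below all UVB-Saline points, and Fasn is widely spread in UVB-hCOL3A1.

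UVB-hCOL3A1 was also set beside NoUVB, to see where treated irradiated skin lay relative to skin without irradiation. No member passed, while edgeR called 0.0408% of all genes. The log2 difference was positive for 18 of 27 genes, against 49.2% of all genes, with a median of 0.09 against -0.01. The 18 sterol enzymes had 11 positive and 7 negative values and a median of 0.06. In 3 members (11.1%) the UVB-hCOL3A1 libraries lay wholly above NoUVB and in 1 (3.70%) wholly below, and each of these 2 directions held 10.7% of all genes. The share above was near the background and the share below was under it. At an unadjusted p of 0.05 edgeR had 2 members higher and 0 lower, where 6.29% and 5.52% of all genes were. Limma voom had 2 higher (6.55% of all genes) and DESeq2 1 (2.91%). The median was 0.01 without NoUVB 2, 0.02 without UVB-hCOL3A1 2 and 0.14 without NoUVB 3.

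Ebp was again the gene with the largest value, at 10.8, 11.9 and 11 CPM in UVB-hCOL3A1 against at most 9.14 CPM in NoUVB. The log2 difference was 0.45 ± 0.16 (edgeR adjusted p = 0.318). The other 2 wholly above NoUVB were Hsd17b7 (0.21 ± 0.13, edgeR adjusted p = 0.573) and Acly, the ATP citrate lyase. Acly was at 104, 91.2 and 117 CPM in NoUVB and at 123, 139 and 124 CPM in UVB-hCOL3A1, a log2 difference of 0.31 ± 0.13 (edgeR adjusted p = 0.410). Stard4 was wholly below, at -0.23 ± 0.16 (edgeR adjusted p = 0.610). Cyp51 had 0.00 ± 0.12 and Hmgcs1 0.02 ± 0.13, so their fitted means in treated skin and in NoUVB nearly coincided, which does not show that they were equal. Over the 3 groups the UVB-Saline mean was the highest for 21 of 27 genes, the NoUVB mean the lowest for 15, and the UVB-hCOL3A1 mean lay between the others for 12.

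The libraries of a group did not all lie alike. The mean log2 CPM of the 18 sterol enzymes, relative to the NoUVB mean, was 0.04, -0.17 and 0.13 in NoUVB 1, 2 and 3, 0.33, 0.43 and 0.13 in UVB-Saline, and 0.01, 0.21 and 0.04 in UVB-hCOL3A1. UVB-Saline 3 thus equalled NoUVB 3. For the 5 fatty acid genes it was 0.12, -0.22 and 0.10 in NoUVB, 0.22, 0.36 and -0.23 in UVB-Saline, and 0.04, 0.52 and 0.10 in UVB-hCOL3A1. NoUVB 2 held the lowest level of 14 of the 27 genes and UVB-hCOL3A1 3 of 6, while UVB-Saline 2 held the highest level of 12 and UVB-hCOL3A1 2 of 7. The spread within groups was of the size seen over all genes. The median coefficient of variation of the 27 genes was 12.3%, 14.7% and 12.9% in NoUVB, UVB-Saline and UVB-hCOL3A1, against 14%, 17.3% and 14% over all genes. It ranged from 0.985% for Sc5d in NoUVB to 44.2% for Fasn in UVB-hCOL3A1.

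Markers of the other lipid-making cells moved across the same libraries. All 10 sebocyte markers (among them the wax synthases Awat1 and Awat2) were detected. Set against the NoUVB mean, their mean log2 CPM was 0.01, -0.38 and 0.37 in NoUVB 1, 2 and 3, 0.48, 0.57 and -0.51 in UVB-Saline, and 0.14, 0.53 and 0.14 in UVB-hCOL3A1. In UVB-Saline 3, 4 of the 10 markers lay above their NoUVB mean. The lowest there was the desaturase Scd3, at 0.65 CPM against 33.4, 9.56 and 37.1 CPM in NoUVB. The summed level of the list in that library, 512 CPM, lay above NoUVB 1 (456 CPM) and NoUVB 2 (375 CPM) and below NoUVB 3 (589 CPM). The summed level of the sebocyte markers was 375 to 589 CPM in NoUVB, 512 to 797 in UVB-Saline and 574 to 715 in UVB-hCOL3A1. Of the 10, 8 were positive for UVB-Saline against NoUVB (median 0.27) and 6 for UVB-hCOL3A1 against UVB-Saline (median 0.04). For UVB-hCOL3A1 against NoUVB 9 were positive (median 0.47), and no sebocyte marker was called in any comparison. All 14 adipocyte markers were detected too, with 13 negative for UVB-Saline against NoUVB (median -0.90) and 14 positive for UVB-hCOL3A1 against UVB-Saline (median 0.85), none of them called. Their summed level was 1080 to 2690 CPM in NoUVB, 825 to 1230 in UVB-Saline and 1440 to 2360 in UVB-hCOL3A1. It was 2690 CPM in NoUVB 2, where Fasn was at 264 CPM, and 2360 CPM in UVB-hCOL3A1 2, where Fasn was at 603 CPM. The 6 suprabasal keratinocyte markers summed to 2570 to 4970, 4410 to 6270 and 3560 to 5290 CPM in the same group order, and the 5 basal markers to 2290 to 2410, 2130 to 4370 and 2110 to 2650. The 5 macrophage markers summed to 347 to 390, 218 to 582 and 488 to 688 CPM, the 5 fibroblast markers to 4500 to 5490, 4190 to 4390 and 5200 to 6390, and the 5 skeletal muscle markers to 161 to 525, 114 to 361 and 402 to 666. The part of these cell types in the values of the 27 genes was not tested.

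**Figure D4:**
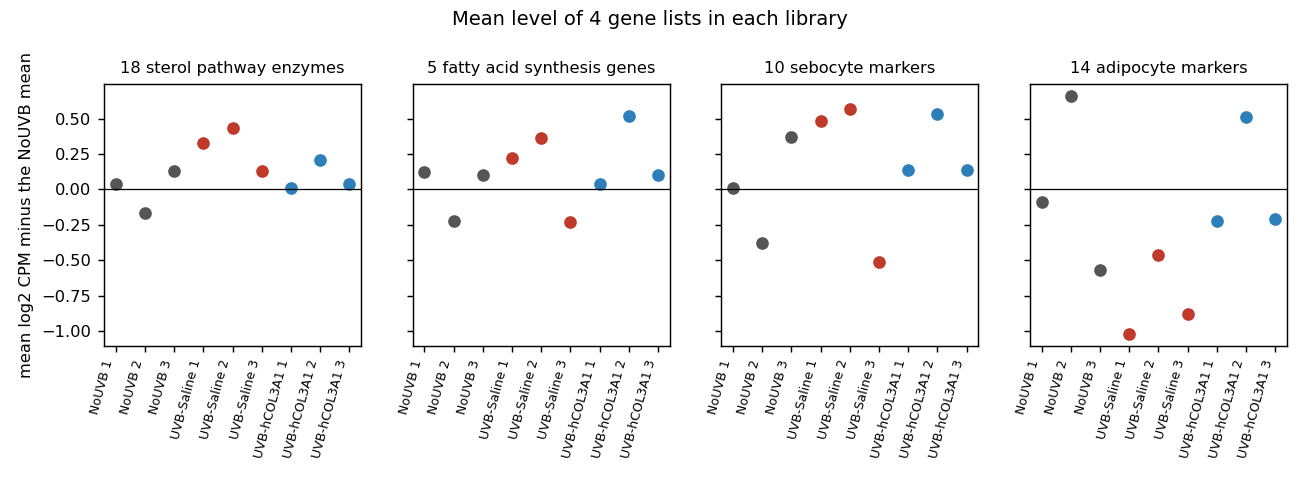
Points are the mean log2 CPM of a gene list in each library minus its NoUVB mean, for 18 sterol pathway enzymes, 5 fatty acid synthesis genes, 10 sebocyte markers and 14 adipocyte markers. The fatty acid genes are lowest in NoUVB 2 and UVB-Saline 3, the low sebocyte mean of UVB-Saline 3 includes Scd3 at -4.77, and the adipocyte markers are lowest in UVB-Saline 1 and 3.

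Other genes of the pathways were followed in lists of their own, and edgeR called none of them in any comparison. For UVB-Saline against NoUVB, 6 of 8 genes of the SREBP machinery were positive (median 0.05), with the escort protein Scap at 0.19 ± 0.09 (edgeR adjusted p = 0.562). Ubxn8 had 0.60 ± 0.24 there and -0.07 ± 0.23 for UVB-hCOL3A1 against UVB-Saline (edgeR adjusted p = 0.467 and 0.938). For UVB-hCOL3A1 against UVB-Saline 6 of 8 were negative (median -0.13), with Scap at -0.18 ± 0.09 (edgeR adjusted p = 0.498) and Mbtps1, a protease that cleaves SREBP, at -0.18 ± 0.08 (edgeR adjusted p = 0.443). Of 10 further sterol synthesis and trafficking genes, 7 and 5 were positive in these 2 comparisons. Some of the 10 are enzymes of the same route, and the list ranged from -0.44 to 0.76 for UVB-Saline against NoUVB. Targets and partners of the sterol sensor LXR, which drives cholesterol export, were positive in 4 of 9 (median -0.01) and in 7 of 9 (median 0.23). Their examples were Apoe, a lipid carrier, at -0.44 ± 0.16 and 0.45 ± 0.16 (edgeR adjusted p = 0.447 and 0.362), and Mylip, a ubiquitin ligase of lipoprotein receptors, at -0.30 ± 0.09 and 0.18 ± 0.09 (edgeR adjusted p = 0.367 and 0.515). Lpcat3, a phospholipid acyltransferase, had 0.29 ± 0.15 and 0.23 ± 0.14 (edgeR adjusted p = 0.581 and 0.578), and 0.52 ± 0.14 for UVB-hCOL3A1 against NoUVB (edgeR adjusted p = 0.205). Smpdl3a, a phosphodiesterase, had 0.02 ± 0.14 and 0.44 ± 0.14 (edgeR adjusted p = 0.976 and 0.305).

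Elongation and desaturation genes were positive in 11 of 18 for UVB-Saline against NoUVB (median 0.09) and in 12 of 18 for UVB-hCOL3A1 against UVB-Saline (median 0.10). Elovl7, an elongase, had 0.64 ± 0.19 in the first (edgeR adjusted p = 0.359), and Fads1, a desaturase, 0.37 ± 0.13 in the second (edgeR adjusted p = 0.354). The list of citrate and NADPH supply and lipogenic regulators was positive in 4 of 13 (median -0.11) and 12 of 13 (median 0.22). Thrsp, a lipogenic protein abundant in fat, had -0.81 ± 0.45 and 1.39 ± 0.44 (edgeR adjusted p = 0.628 and 0.332). Genes of the polyprenol and quinone branch, which also starts from farnesyl diphosphate, were positive in 5 of 8 (median 0.06) and 3 of 8 (median -0.08). Nus1, a subunit of the enzyme that makes dolichol precursors, had 0.37 ± 0.12 in the first (edgeR adjusted p = 0.367). Ggps1, which makes geranylgeranyl diphosphate, had -0.34 ± 0.12 and 0.34 ± 0.12 (edgeR adjusted p = 0.426 and 0.353), and Pdss1, a subunit of the enzyme that makes the ubiquinone side chain, 1.13 ± 0.38 and -0.66 ± 0.37 (edgeR adjusted p = 0.426 and 0.544). For UVB-hCOL3A1 against NoUVB the positive counts were 2 of 8 for the SREBP machinery, 5 of 10 for further sterol genes, 6 of 9 for LXR genes, 13 of 18 for elongation and desaturation, 10 of 13 for citrate and NADPH supply and 3 of 8 for the polyprenol branch.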

How the data were processed

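The authors deposited 1 table of estimated counts per gene for 9 libraries. Per the submitters' processing notes, the tools were RSEM 1.3.3, STAR 2.7.11b, Bowtie2 2.5.4, fastp 0.23.4 and DESeq2 1.44.0 on GRCm39, listed without role or order. Strand setting and annotation release: not given in the sources used here. Groups and replicate numbers come from the titles. Counts were rounded, filtered with filterByExpr (17168 genes kept), scaled by TMM and tested in edgeR 4.0.16 (R 4.3.3), with 3 groups in 1 robust quasi-likelihood fit (6 residual degrees of freedom, common BCV, the biological variation between libraries, 0.193). Tests were two-sided, with Benjamini-Hochberg adjustment over all tested genes and a threshold of 0.05. CPM are TMM-scaled. Library means use log2 CPM with a prior count of 2. The standard error is the size of the log2 difference divided by the square root of F. The fit was also run on simulated data, with changes larger than any among the 27 genes. That run does not show whether smaller changes could be called. No 2 libraries were identical. The 27 genes, the lists and the naming rule (all 27, plus up to 4 of a related list by p) were chosen with earlier results of these data known, so no list was tested. Alternatives were other scalings, filters and tools (DESeq2 1.42.0, limma 3.58.1 voom), non-robust dispersion, 2-group fits, a replicate block, removal of ribosomal and small RNA genes, and leaving out libraries.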

Additional observations from a re-analysis of the deposited data

How the results depend on the processing

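None of the 27 genes was called in any of the 3 comparisons under any of the 20 alternatives. The lowest edgeR adjusted p over these alternatives was 0.147 (Ebp, UVB-Saline against NoUVB, replicate block), 0.0955 (Cyp51, UVB-hCOL3A1 against UVB-Saline, without UVB-Saline 3) and 0.169 (Ebp, UVB-hCOL3A1 against NoUVB, fit of 2 groups). Members of about 3 CPM, such as Tm7sf2 with 23 to 58.01 counts, rest on few counts. Scaled by library size alone, the median of all genes in UVB-hCOL3A1 against NoUVB was -0.12 instead of -0.01, and that of the 27 genes 0.00. Motif counts in the 250 bases before the start were within 1 gene of those given.

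The number of genes called over the whole table varied widely. For UVB-Saline against NoUVB (3) it was 100 by library size alone (61 higher and 39 lower, against 0 and 3), 73 without a filter, 96 with DESeq2, 61 with the replicate block, 0 to 12 with each library left out and 5 without both UVB-Saline 3 and UVB-hCOL3A1 3. For UVB-hCOL3A1 against UVB-Saline (0) the values in that order were 30 (16 higher and 14 lower), 106, 173, 74, 0 to 78 and 26. For UVB-hCOL3A1 against NoUVB (7) they were 159 (115 higher and 44 lower, against 7 and 0), 178, 269, 118, 0 to 242 and 91, with 0 in limma voom, 1 with non-robust dispersion and 407 in a fit of 2 groups. The cause was not tested. Libraries share only a replicate number. Deviations of same-numbered libraries correlated at 0.018 to 0.41, with 5 of 9 pairs above 0.1 and the own number best in 12 of 18 cases. The block made no call among the 27 genes, which had none to lose.

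Some values changed sign, and the cause was not tested. Not all of them were near 0, since Fasn had 0.37 in UVB-hCOL3A1 against UVB-Saline. With each library left out, UVB-Saline against NoUVB ranged from -0.10 to 0.05 for Srebf1, -0.19 to 0.15 for Insig1, -0.07 to 0.08 for Mvk, -0.04 to 0.17 for Fdps, -0.06 to 0.41 for Tm7sf2, -0.05 to 0.22 for Acaca, -0.16 to 0.16 for Fasn and -0.15 to 0.38 for Me1. UVB-hCOL3A1 against UVB-Saline ranged from -0.12 to 0.12 for Srebf1, -0.04 to 0.31 for Insig1, -0.31 to 0.05 for Acat2, -0.19 to 0.09 for Fdft1, -0.15 to 0.32 for Tm7sf2, -0.38 to 0.02 for Msmo1, -0.17 to 0.04 for Nsdhl, -0.21 to 0.10 for Acss2, -0.31 to 0.07 for Acaca, -0.05 to 0.61 for Fasn and -0.06 to 0.46 for Me1. UVB-hCOL3A1 against NoUVB ranged from -0.14 to 0.09 for Srebf1, -0.07 to 0.26 for Insig1, -0.02 to 0.32 for Acat2, -0.03 to 0.08 for Hmgcs1, -0.19 to 0.02 for Pmvk, -0.11 to 0.11 for Fdps, -0.17 to 0.07 for Lss, -0.21 to 0.08 for Sc5d and -0.09 to 0.56 for Fasn. Cyp51 and Acaca, both at 0.00 in UVB-hCOL3A1 against NoUVB, ranged there from -0.09 to 0.09 and from -0.24 to 0.17. By library size alone, Mvk had -0.01 in the first comparison, and Srebf1 -0.04 and Tm7sf2 -0.07 in the second. With that scaling Srebf1 had -0.13, Hmgcs1 -0.09 and Fdps -0.05 in the third. Tm7sf2 had -0.02 with limma voom in the second. Without both UVB-Saline 3 and UVB-hCOL3A1 3, Insig1 had 0.15 and Fasn 0.13 in the first, Fdft1 0.03, Tm7sf2 -0.21, Acaca 0.02 and Me1 -0.03 in the second, and Sc5d 0.08 in the third.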
